A study of Homo sapiens with 6 samples.

Results

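The 9 genes described here encode membrane transporters that have been tied to the handling of imatinib by cells: the efflux pumps ABCB1, ABCG2, ABCC1, ABCC3, ABCC4, ABCC5 and ABCC10 and the uptake carriers SLC22A4 and SLC22A5. They were chosen by name, and all 9 had counts among the 35615 gene symbols of the table and passed the filter on low counts, which 14543 genes passed. The libraries came from K562, an established human cell line of erythroid character, grown from a chronic myeloid leukaemia, that carries the BCR-ABL1 fusion kinase, the target of imatinib. Per the labels, each culture was nucleofected with 500 pmol of a synthetic hsa-miR-92a-1-5p mimic (miR92a 1 to 3; genotype label miR-92a overexpression) or with a negative-control mimic (scramble 1 to 3; genotype label Control). All 6 cultures were given 1 µM imatinib 4 h after transfection and harvested for RNA 24 h later, so each comparison is between mimics in the presence of the drug; cultures without imatinib were not analysed here.

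ATP-binding cassette (ABC) transporters use ATP to move substrates across membranes, and several of them carry drugs out of cells. ABCB1 (P-glycoprotein) and ABCG2 (breast cancer resistance protein) are the pumps best known to transport imatinib, while members of the ABCC group export organic anions, glutathione conjugates or nucleotides. SLC22 carriers bring small organic ions into cells: SLC22A4 (OCTN1) takes up ergothioneine and organic cations, and SLC22A5 (OCTN2) is the high-affinity carnitine carrier. A microRNA lowers its targets mainly by pairing of its seed, bases 2 to 8, with sites in their transcripts.

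Library totals were 24751862 to 25982085 counts in 5 libraries and 704448 counts in miR92a 1, 36.0-fold less than the median of the others. In miR92a 1, 3 counts stood for 4.08 CPM (counts scaled to the TMM-adjusted library size), against 0.115 to 0.125 CPM elsewhere. Mitochondrial genes held 8.71% to 11.2% of the counts. The labels give the cell type as myeloblast, but of its defining markers MPO and CTSG were at 0 in all 6 libraries and ELANE had at most 1 count. Other genes of that list were present outside miR92a 1, with 350 to 524 counts of CD33, 254 to 1476 of LYZ and 43 to 116 of AZU1. The erythroid genes GATA1, KLF1 and TAL1, by contrast, had 4116 to 8005 counts in every library but miR92a 1. The summed level of 10 myeloblast and granulocyte markers was 51.4 to 84.5 CPM in scramble and 33.0 to 66.3 CPM in miR92a libraries. That of 6 lymphocyte markers was 7.73 to 8.02 and 5.44 to 8.02 CPM, and that of 6 liver, gut and kidney markers 2.88 to 32.0 and 2.82 to 14.9 CPM. The upper ends of the latter were mostly VIL1, at 30.5 CPM in scramble 3 and 13.2 CPM in miR92a 3. In the other libraries VIL1 was at most 3.10 CPM. The 9 erythroid and K562 markers summed to 8650 to 13300 and 6750 to 11700 CPM. The part of these differences in the results below was not tested. In bulk RNA, fewer cells with a transcript and less of it per cell cannot be told apart.

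The 2 strands of the miR-92a-1 hairpin, on the plus strand of chromosome 13 in GRCh38.p14 (RefSeq), are printed 5′ to 3′ with the seed in capitals, since the mimic is the first of them:
hsa-miR-92a-1-5p (chr13:91351324-91351346): aGGUUGGGaucgguugcaaugcu
hsa-miR-92a-3p (chr13:91351361-91351382): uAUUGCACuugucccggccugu

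The seed of miR-92a-1-5p pairs with CCCAACC (7mer-m8), and a 7mer-A1 is CCAACCA, its last 6 bases followed by A. Among the transporters, ABCC4 and SLC22A4 held 1 such match each in the longest annotated 3′ UTR (GENCODE v29, GRCh38). That is 22.2% of the 9 genes, against 16.9% of 12888 tested genes whose 3′ UTR is annotated. Both matches are 7mer-A1, shown in capitals within 30 bases of the transcript:
ABCC4 3′ UTR site (chr13:95021566-95021572, minus strand): atCCAACCAaaatgtcaagtccgttccgaa
SLC22A4 3′ UTR site (chr5:132344021-132344027, plus strand): gtccttgctttacaaaCCAACCAtttctag

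The ABCC4 site starts at base 3 of a 3′ UTR of 1746 bases, and the SLC22A4 site at base 186 of 371. No 3′ UTR of the 9 genes held an 8mer or a 7mer for the partner strand miR-92a-3p, which 20.1% of tested genes did. For that strand the longest coding sequence of 2 of the 9 genes, ABCB1 and SLC22A5, held a 7mer (22.2%, against 10.3% of tested genes). In the longest coding sequence, 5 of the 9 genes held a 7mer for miR-92a-1-5p, against 21.9% of 12948 tested genes. Neither the coding nor the 3′ UTR shares were matched for length. The 5 coding sequences with a miR-92a-1-5p site ran from 1656 bases (SLC22A4) to 4584 bases (ABCC3). Their sites are printed here, and ABCC3, called lower in the blocked fit below, and ABCC4, called higher, are among them:
ABCC3 coding site (chr17:50677904-50677910, plus strand): gatactaaggtggatgCCAACCAgagaagc
ABCC4 coding site (chr13:95301281-95301287, minus strand): gtaccaggaggtgaagCCCAACCcgctgca
ABCC10 coding site (chr6:43443025-43443031, plus strand): gtggatgcagatgtggCCAACCAcctgctg
ABCG2 coding site (chr4:88101287-88101293, minus strand): ctcttcttcctgacgaCCAACCAgtgtttc
SLC22A4 coding site (chr5:132335912-132335918, plus strand): tcactgctgagctctaCCCAACCctggtca

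ABCB1, ABCC1, ABCC5 and SLC22A5 had no 7mer or 8mer for miR-92a-1-5p in either region. A match is a description of these sequences and does not show binding.

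The transporters of K562 cells were ranked by level per length, that is CPM per kilobase of the longest annotated transcript (mean ± SD over 6 libraries). ABCC5 (17.2 ± 2.73), ABCC1 (13.9 ± 0.891) and ABCC10 (10.2 ± 1.04) were highest and together held 74.1% to 80.7% of the summed level of the 9 genes in each library. SLC22A4 followed at 7.23 ± 1.51 and SLC22A5 at 2.02 ± 0.203. ABCG2 (0.899 ± 0.440), ABCC3 (0.835 ± 0.273), ABCB1 (0.457 ± 0.292) and ABCC4 (0.225 ± 0.373) were lowest. Thus the pumps best known for imatinib, ABCB1 and ABCG2, stood below 3 ABCC pumps and both carriers: ABCB1 was at percentile 12.4 and ABCG2 at 19.3 of 13615 tested genes with a length, while ABCC5 was at 73.0. Neighbours in this order overlapped in range except ABCC1 above ABCC10, SLC22A4 above SLC22A5, and SLC22A5 above ABCG2. ABCG2 exceeded ABCC3 in only 3 of 6 libraries. The longest SLC22A5 transcript is a retained-intron form of 10435 bases. With its longest coding transcript (3237 bases) the gene had 6.50 CPM per kilobase, close to SLC22A4, and the 2 ranges overlapped (5.88 to 7.75 against 5.51 to 9.89).

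**Figure D1:**
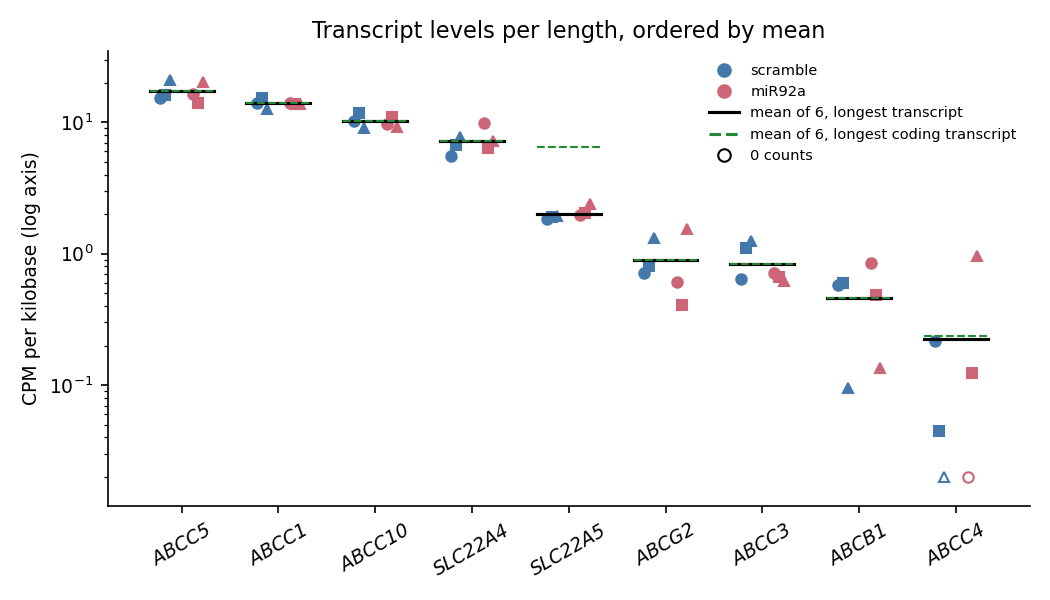
CPM per kilobase (log axis) of the 9 transporter genes in 3 scramble and 3 miR92a libraries, ordered by the mean; circles, squares and triangles are replicates 1, 2 and 3, solid bars the mean over 6 libraries with the longest transcript and dashed bars with the longest coding transcript, and open symbols near the base of the axis libraries with 0 counts. ABCC5, ABCC1 and ABCC10 lie between 9.10 and 21.0, and ABCC4 between 0 and 0.968.

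The first question was which transporters differ between mimic and control. On group alone, 0 of the 9 passed in edgeR's quasi-likelihood test (threshold 0.05 on the p adjusted by Benjamini-Hochberg, 3 libraries in each group), against 1.41% of all tested genes (0.976% lower and 0.433% higher). None had an unadjusted p under 0.05, against 13.5% of all genes. DESeq2 and limma-voom also called 0, against 2.66% and 1.89% of all genes, although DESeq2 gave no adjusted p for ABCB1, ABCG2, ABCC3 and ABCC4. The other planned settings on group alone called 0 as well, against 1.42% of all genes with median-of-ratios scaling, 1.13% with total counts alone, 1.13% with no filter and 1.58% with a mean of at least 1 CPM. Leaving out scramble 1, 2 or 3 gave 0.484%, 0.47% and 1.36% of all genes, and leaving out miR92a 1, 2 or 3 gave 0.514%, 0.537% and 0.869%, again with 0 transporters. With the replicate number as a block, ABCC3 fell, as did 6.7% of all genes, and ABCC4 rose, as did 4.57%. With 9 genes, 2 calls against 11.3% of all genes are not read as a result about transporters. Both were called with the block and total counts alone (11.8% of all genes) or no filter (8.01%), and neither in limma-voom with the block (9.41%). DESeq2 with the block called 7.49% of all genes but gave no adjusted p for ABCC3 or ABCC4, so it bears on neither. The median log2 fold change of the 9 was -0.02, against -0.01 for all genes, and 6 values were negative and 3 positive. That balance rested on single libraries: the median was 0.057, with 3 negative and 6 positive, without scramble 2, and 0.116, 0.106 and 0.04 without scramble 3, miR92a 2 or miR92a 3.

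**Figure D2:**
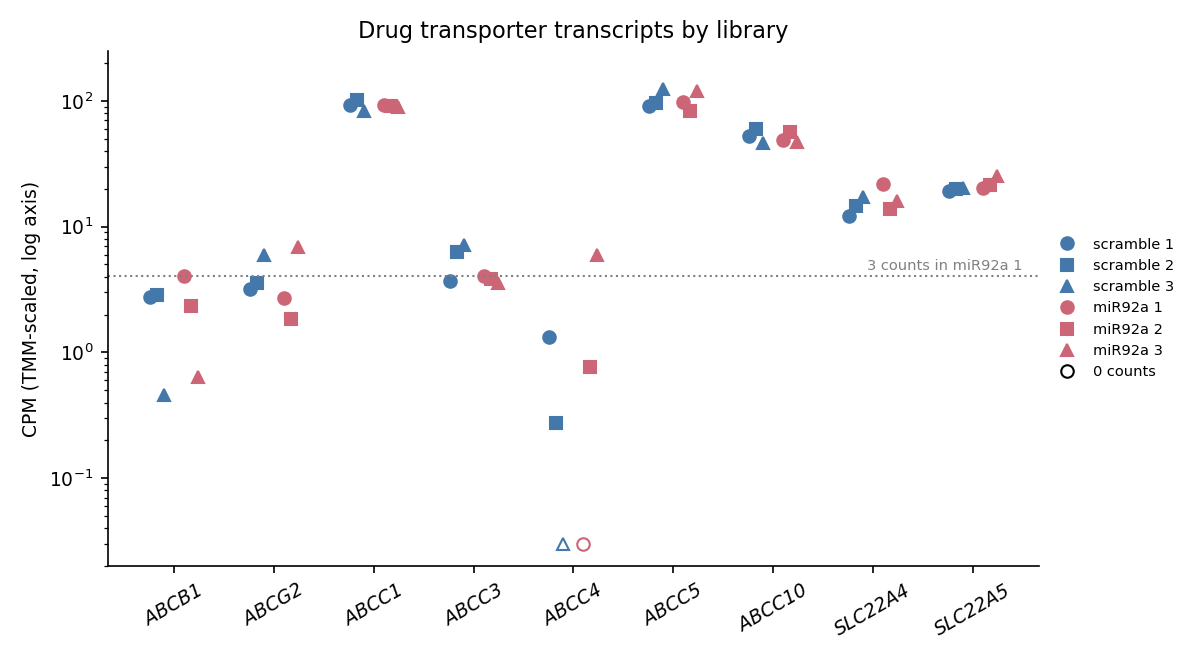
TMM-scaled CPM (log axis) of each transporter in 6 libraries; colours mark the groups, shapes the replicate number and open symbols near the base of the axis 0 counts, and the dotted line is the level of 3 counts in miR92a 1 (4.08 CPM). The groups overlap for 8 of the 9 genes; for SLC22A5 the lowest miR92a value (20.41 CPM) lies just above the highest scramble value (20.37 CPM).

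**Figure D3:**
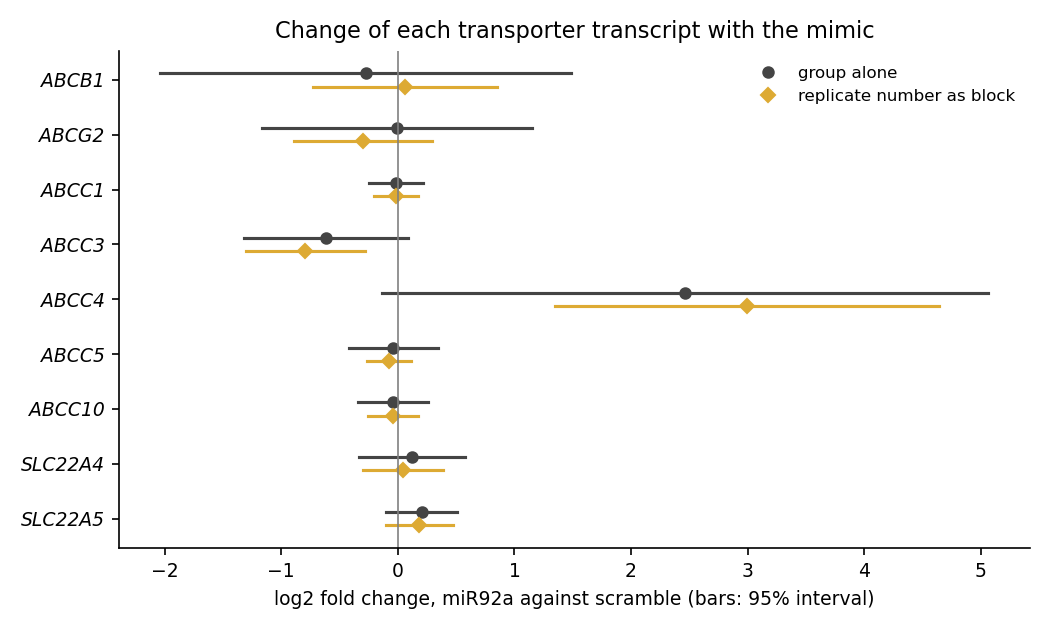
Log2 fold change of each transporter, miR92a against scramble, with its 95% interval, from edgeR on group alone (circles) and with the replicate number as a block (diamonds). The intervals of ABCC1, ABCC5 and ABCC10 lie between -0.42 and 0.35, those of ABCB1 and ABCG2 are wide, and ABCC3 and ABCC4 exclude 0 only with the block.

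Among the efflux pumps, ABCB1 (chromosome 7, 87503633 to 87713323) had 2.75, 2.85 and 0.457 CPM in scramble 1, 2 and 3 and 4.08, 2.33 and 0.641 CPM in miR92a 1, 2 and 3. The replicate 3 library was the lowest of its group in both groups, and the groups overlapped. The value of miR92a 1 rested on 3 counts (95% counting interval 0.842 to 11.9 CPM). The log2 fold change was -0.27 ± 0.77 (SE, adjusted p = 0.934), with a 95% interval of -2.04 to 1.49, or 0.244-fold to 2.81-fold. With the block the estimate was 0.06 ± 0.38. ABCB1 shares 4.32% of the 31-base words of its longest coding transcript with its neighbour ABCB4, so a small part of its reads could be assigned to either gene.

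ABCG2, a pump that works as a dimer (chromosome 4, 88090264 to 88231322), had 3.18, 3.60 and 5.90 CPM in scramble 1 to 3 and 2.72, 1.83 and 6.94 CPM in miR92a 1 to 3. Here replicate 3 was the highest library of each group, the opposite of ABCB1. The value of miR92a 1 rested on 2 counts, with a 95% counting interval of 0.33 to 9.83 CPM that spans the value of miR92a 3. The log2 fold change was -0.007 ± 0.51 (adjusted p = 0.999; 95% interval -1.17 to 1.15), and -0.30 ± 0.28 with the block.

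Replicate 3 stood apart for both of these pumps in scramble, and from miR92a 2 in the mimic group. Its ABCB1 level was 0.164 times the mean of replicates 1 and 2 in scramble and 0.275 times that of miR92a 2 in the mimic group. Its ABCG2 level was 1.74 times the mean of the others in scramble and 3.78 times that of miR92a 2. As a description over all tested genes, 0.131% had a log2 difference of replicate 3 from replicates 1 and 2 as low as that of ABCB1 in both groups, and 2.04% one as high as that of ABCG2 in both. These differences include miR92a 1, which held 3 counts of ABCB1 and 2 of ABCG2. The difference between mimic and control was smaller than this spread for both genes. The labels say only that the numbers are biological replicates, and what sets replicate 3 apart was not tested.

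**Figure D4:**
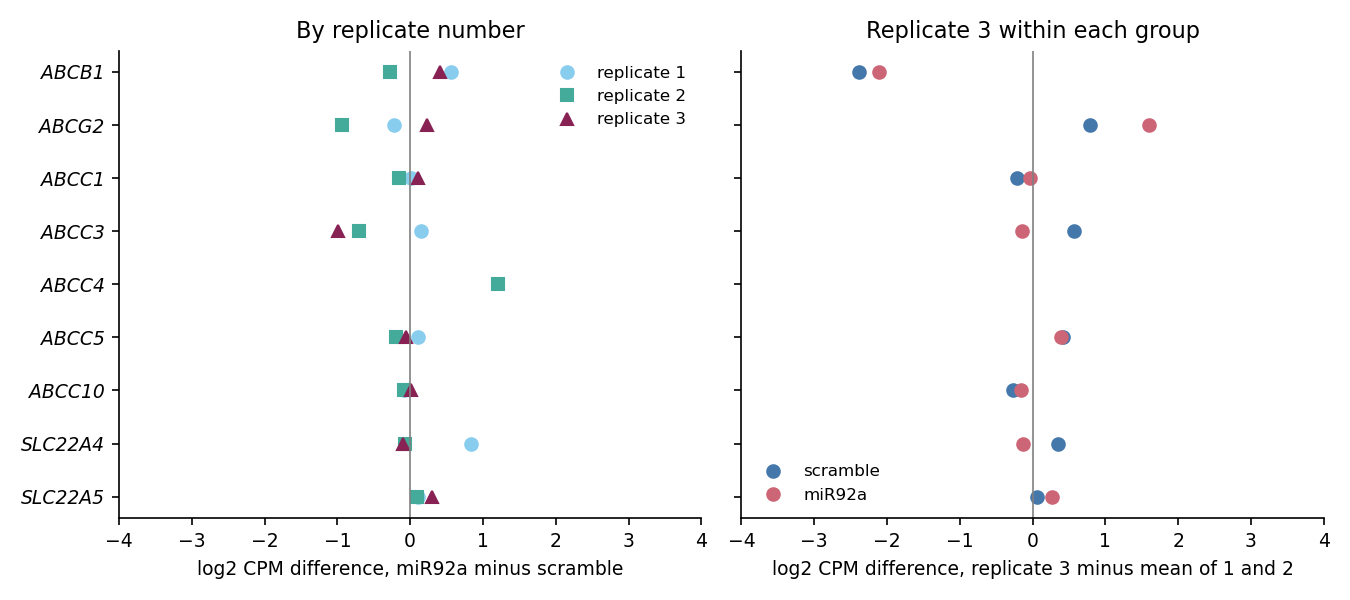
Left, log2 CPM difference of miR92a minus scramble for each replicate number (prior count 2); right, log2 CPM difference of replicate 3 minus the mean of replicates 1 and 2 within each group. Comparisons with a 0-count library, 2 of 3 on the left and both on the right for ABCC4, are left out. Replicate 3 is low for ABCB1 in both groups (-2.39 and -2.11) and high for ABCG2 (0.79 and 1.59). For these genes miR92a 1 held 3 and 2 counts.

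The abundant ABCC pumps had narrow intervals. ABCC1 (MRP1, an exporter of glutathione conjugates; chromosome 16, 15949577 to 16143074) had 92.1, 102 and 83.4 CPM in scramble and 92.5, 91.5 and 90.1 CPM in miR92a 1 to 3. All mimic values lay within the control range. The log2 fold change was -0.02 ± 0.10 (adjusted p = 0.973), with bounds of 0.840-fold and 1.16-fold. ABCC5 (MRP5, an exporter of cyclic nucleotides; chromosome 3, 183919934 to 184018015) had 90.5, 95.6 and 124 CPM in scramble and 98.0, 83.7 and 119 CPM in miR92a libraries. Replicate 3 was again the highest of each group and the groups overlapped. Its log2 fold change was -0.04 ± 0.17 (adjusted p = 0.966; 0.747-fold to 1.27-fold). ABCC10 (MRP7, a pump of lipophilic drugs; chromosome 6, 43427366 to 43450430) had 52.1, 59.4 and 46.3 CPM in scramble and 49.0, 56.2 and 46.9 CPM in miR92a libraries. The log2 fold change was -0.04 ± 0.13 (adjusted p = 0.941; 0.787-fold to 1.2-fold). Under the model no interval of these 3 genes reached below 0.747-fold or above 1.27-fold.

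ABCC3 (MRP3, an exporter of glucuronides and bile salts; chromosome 17, 50634777 to 50692252) had 3.69, 6.28 and 7.19 CPM in scramble 1 to 3 and 4.08, 3.82 and 3.57 CPM in miR92a 1 to 3. The mimic libraries were all low and close together, but scramble 1 lay among them. On group alone the log2 fold change was -0.62 ± 0.31 (edgeR, adjusted p = 0.440). With the block ABCC3 fell by 0.79 ± 0.25 on the log2 scale (adjusted p = 0.0409), to 0.577-fold. By number, the difference was -0.71 in replicate 2 and -0.99 in replicate 3, but 0.14 in replicate 1, where the mimic library held 3 counts. The blocked call was kept without replicate 1 (adjusted p = 0.0194; 8.37% of all genes called) and lost without replicate 2 (0.374; 5.7%) or replicate 3 (0.553; 9.76%) and in limma-voom with the block (0.0664).

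ABCC4 (MRP4, an exporter of cyclic nucleotides and nucleotide analogues; chromosome 13, 95019829 to 95301475) had 34, 7 and 0 counts in scramble 1 to 3 and 0, 20 and 149 counts in miR92a 1 to 3. That is 1.33, 0.277 and 0 CPM in scramble and 0, 0.764 and 5.97 CPM in the mimic group. A single library, miR92a 3, held 88.2% of the 169 counts of the mimic group, and the groups overlapped. At the mean scramble level, miR92a 1 would have held 0.395 counts, so its 0 counts do not separate it from the controls. They allow up to 4.08 CPM by the limit of 3 counts (5.02 CPM by the exact Poisson interval). At the level of miR92a 3, miR92a 1 would have held 4.39 counts, and the 5.97 CPM of miR92a 3 lies above both limits. In replicate 3 the mimic library was at 47.9 times the level of 3 counts in scramble 3 (0.125 CPM). The 0 counts of scramble 3 allow up to 0.153 CPM by the exact Poisson interval. On group alone the log2 fold change was 2.46 ± 1.14 (edgeR, adjusted p = 0.399). With the block ABCC4 rose by 2.99 ± 0.79 (adjusted p = 0.0164). That call was kept without replicate 1 (8.37% of all genes called) or replicate 2 (5.7%) and lost without replicate 3 (9.76%). Without replicate 3 the blocked value was 0.80 (adjusted p = 0.831), without miR92a 3 the unblocked one 0.37 (0.976), and limma-voom with the block gave adjusted p = 0.196. All of these estimates were above 0. ABCC4 holds seed matches in its 3′ UTR and its coding sequence, and whether the mimic acts on them was not tested.

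ABCC4 had the smallest p of the 9 on group alone, and the genes with the most similar profile over the 6 libraries were sought among 9384 others with a mean of at least 10 CPM. They were CENPB, a centromere protein (Pearson r = 0.963), SNU13, a component of small nuclear and nucleolar ribonucleoproteins (0.963), and GTF2IRD1, a transcription factor (0.962). Their own levels spanned far less, 40.4 to 53.8 CPM for CENPB. These correlations share libraries and depth and 2 ABCC4 values are 0, so they are a description only.

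The uptake carriers lie next to each other on chromosome 5. SLC22A4 (132294443 to 132344206) had 12.1, 14.7 and 17.1 CPM in scramble and 21.8, 13.9 and 16.0 CPM in miR92a 1 to 3. The highest value, in miR92a 1, rested on 16 counts (95% counting interval 12.4 to 35.3 CPM), and the groups overlapped. The log2 fold change was 0.12 ± 0.20 (adjusted p = 0.869; 0.793-fold to 1.49-fold). SLC22A4 showed no detectable fall, but its interval covers falls down to 0.793-fold. It holds a seed match in its 3′ UTR and another in its coding sequence, and whether the mimic acts on them was not tested.

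SLC22A5 (132369752 to 132395614) had 19.0, 20.0 and 20.37 CPM in scramble and 20.41, 21.4 and 25.1 CPM in miR92a 1 to 3. It was the only transporter whose groups did not overlap, with the mimic higher, but the lowest mimic value, in miR92a 1, rested on 15 counts (95% counting interval 11.4 to 33.7 CPM, which spans all scramble values). That held for 9.73% of all tested genes, and 21.2% did not overlap in either direction. The log2 fold change was 0.20 ± 0.13 (adjusted p = 0.586; 0.933-fold to 1.42-fold). An exact permutation test over the 6 libraries gave p = 0.10 (two-sided), the smallest that 3 against 3 allows. This value follows from the lack of overlap, so the test adds nothing to it. The same test gave 0.3 to 0.8 for the other transporters. The carriers share sequence: 13.1% of the 31-base words of the longest SLC22A4 coding transcript and 4.49% of those of SLC22A5 also occur in other annotated genes, chiefly each other and the antisense gene MIR3936HG. Library strand was not given in the sources used here, so reads from these genes cannot be fully told apart.

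Related genes were grouped in 7 lists. Of 36 other ABC transporters 22 were tested. None passed in edgeR on group alone, against 1.41% of all genes, or with the block, against 11.3%. None had an unadjusted p under 0.05, against 13.5% of all genes. DESeq2 and limma-voom called 0, against 2.66% and 1.89%. Their median log2 fold change was -0.12 with 16 of 22 negative, but 0.008 without scramble 3, with 11 negative and 13 positive. The most abundant were ABCB10, a mitochondrial inner membrane transporter of erythroid cells (240 ± 28.4 CPM in scramble and 232 ± 16.7 with the mimic), and ABCA7, a phospholipid transporter (154 ± 31.8 and 131 ± 38.0).

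Of 34 other SLC22, SLCO and SLC47 carriers only 12 had enough counts to be tested. Their median was -0.06, and between -0.27 and -0.01 with each library left out. SLCO1B3, a liver carrier named here after its values were seen, had 1 count in all. SLCO1A2, an organic anion carrier reported to take up imatinib, had 15.6, 16.4 and 25.9 CPM in scramble and 13.6, 12.7 and 12.0 CPM in miR92a libraries. The groups did not overlap, as was so for 11.5% of all genes in this direction. No gene of the list passed on group alone in edgeR, DESeq2 or limma-voom, against 1.41%, 2.66% and 1.89% of all genes. An unadjusted p under 0.05 was seen for 2 of 12, against 13.5% of all genes. With the block SLCO1A2 alone fell, by 0.69 ± 0.17 (adjusted p = 0.0125), against 6.7% of all genes, and its call was lost without replicate 3 (0.480) and in DESeq2 with the block (0.0767).

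Of 15 genes of imatinib metabolism and plasma binding 8 were tested. Their median was -0.61, with 6 negative, and -0.405 without scramble 3 and -0.374 without miR92a 2. On group alone none passed in edgeR, against 1.41% of all genes, or had an unadjusted p under 0.05, against 13.5%. DESeq2 and limma-voom called 0, against 2.66% and 1.89%. CYP3A4, the main liver enzyme of imatinib oxidation, had at most 5 counts in any library, and ORM1, a plasma protein that binds imatinib, was at 0 in all. CYP3A5, a close relative of CYP3A4, had 60.1, 60.2 and 150 CPM in scramble and 58.5, 43.98 and 75.8 CPM in miR92a libraries. Replicate 3 was the highest in each group and the groups overlapped. With the block CYP3A5 alone of this list fell, by 0.62 ± 0.12 (adjusted p = 0.00207), against 6.7% of all genes. The size depended on replicate 3: without it the blocked value was -0.38 (0.00738), and without scramble 3 alone the unblocked value went from -0.59 to -0.01 (0.995).

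Regulators of drug transporter genes moved in both directions. Of 22 tested, none passed on group alone in edgeR, DESeq2 or limma-voom, against 1.41%, 2.66% and 1.89% of all genes. An unadjusted p under 0.05 was seen for 6, against 13.5% of all genes. With the block 4 fell and 3 rose, against 11.3% of all genes in either direction. YBX1, a Y-box protein reported to act on the ABCB1 promoter, had 1053 ± 148 CPM in scramble and 1344 ± 57.5 with the mimic, and rose by 0.37 ± 0.08 (edgeR with the block, adjusted p = 0.00401). RXRA, the partner of nuclear xenobiotic receptors, rose by 0.38 ± 0.09, while the receptor NR1I2 (PXR) had at most 8 counts. NFE2L2 (NRF2), which drives antioxidant genes and several ABCC genes, fell from 94.7 ± 7.86 to 72.6 ± 2.69 CPM (-0.36 ± 0.09, adjusted p = 0.0133). CTNNB1 (beta-catenin) fell by 0.48 ± 0.11. Calls were lost without replicate 1 for CTNNB1 (adjusted p = 0.0626), RXRA (0.0586) and NFE2L2 (0.0748), without replicate 2 for NFE2L2 (0.181) and without replicate 3 for CTNNB1 (0.0964), which was also lost in limma-voom with the block (0.079).

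Of 15 membrane anchors and trafficking partners none passed on group alone in edgeR, DESeq2 or limma-voom, against 1.41%, 2.66% and 1.89% of all genes. An unadjusted p under 0.05 was seen for 5. The share of all genes with an unadjusted p under 0.05 was 13.5%. With the block 4 fell and 1 rose, against 6.7% and 4.57% of all genes. Of the proteins that tie membrane proteins to actin, RDX (radixin) rose from 21.0 ± 2.73 to 33.6 ± 8.98 CPM (0.59 ± 0.13, edgeR with the block, adjusted p = 0.00612). EZR (ezrin), of the same protein family, fell from 297 ± 13.7 to 246 ± 29.4 CPM (-0.26 ± 0.08, adjusted p = 0.0376); its call was lost without replicate 1 (0.219) or 2 (0.291) and in limma-voom with the block (0.0557). The caveolar protein CAV2 fell by 0.63 ± 0.13, the kinase PIM1 by 0.34 ± 0.10 and the endosomal GTPase RAB5A by 0.34 ± 0.10. The calls of PIM1 (adjusted p = 0.140 and 0.445) and RAB5A (0.0785 and 0.0711) were lost without replicate 1 or 2, and that of RAB5A also without replicate 3 (0.242). Both were also lost with the block in DESeq2 (0.0569 for PIM1 and 0.081 for RAB5A) and limma-voom (0.083 and 0.0647).

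The carnitine shuttle held the only gene of these lists that edgeR called on group alone, 1 of 15 tested there. Over all genes the share called was 1.41%, with 0.976% lower. SLC16A9, a monocarboxylate-family carrier linked to carnitine efflux, had 42.4, 43.9 and 33.7 CPM in scramble and 16.3, 22.6 and 14.4 CPM in miR92a libraries, with no overlap. Groups did not overlap in this direction for 11.5% of all genes. SLC16A9 fell by 1.13 ± 0.20 on the log2 scale (edgeR, adjusted p = 0.0387). With the block, which called 11.3% of all genes, its adjusted p was 7.59e-06. Its unblocked call was lost without scramble 1 (adjusted p = 0.138), scramble 2 (0.149), miR92a 1 (0.132) or miR92a 3 (0.0877). The other 14 tested genes of fatty acid oxidation and carnitine handling were not called, and the list's median was -0.03 (0.003 without scramble 1 and 0.045 without scramble 3). SLC22A5, which brings carnitine in, had no detectable change; whether the 2 carriers differ in their response was not tested.

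The list of glutathione supply and conjugation, processes that provide substrates for ABCC1, also held other genes such as TXNRD1 and NQO1. Of its 20 tested genes none passed on group alone in edgeR, 2 had an unadjusted p under 0.05, DESeq2 called 1 (GSR) and limma-voom 0. Over all genes those shares were 1.41%, 13.5%, 2.66% and 1.89%, in that order. With the block, where 11.3% of all genes were called, GSR, which regenerates reduced glutathione, fell by 0.65 ± 0.14 (adjusted p = 0.00420) and the membrane-bound transferase MGST1 by 0.49 ± 0.14 (0.0230). The calls were lost in DESeq2 with the block (0.213 for GSR and 0.0563 for MGST1), and that of MGST1 also without replicate 1 (0.0580), 2 (0.0598) or 3 (0.178). The list's median was -0.06, and 0.02 without scramble 3. In the blocked fit HBZ and TFRC of the erythroid and K562 markers and LYZ and AZU1 of the myeloblast list were among the markers that also fell; their part in these results was not tested.

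**Figure D5:**
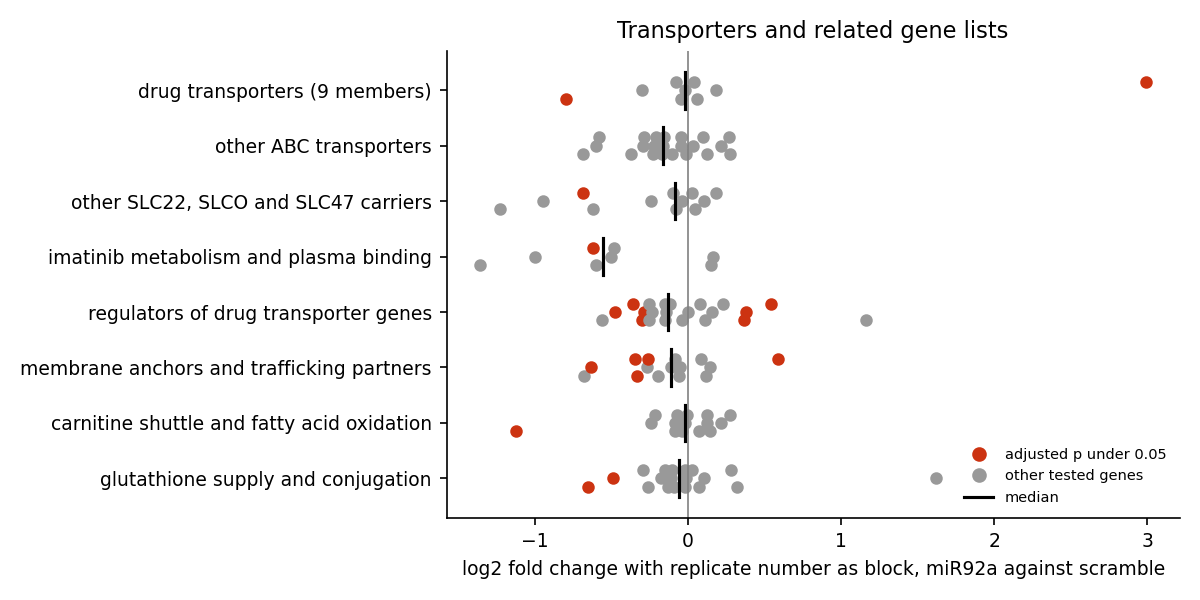
Log2 fold change with the replicate number as a block, miR92a against scramble, for the 9 transporters and the tested genes of 7 related lists; each point is a gene, red points passed an adjusted p of 0.05 and black bars are list medians. ABCC4 lies at 2.99 and ABCC3 at -0.79, and list medians lie between -0.55 and -0.02.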

How the data were processed

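Total RNA of 3 miR92a and 3 scramble cultures was sequenced from both ends. Per the labels' protocols and the submitters' processing notes, the authors estimated reads with kallisto on GRCh38. The deposited values are expected counts per gene symbol, as whole numbers, not scaled; kallisto's version, annotation and library strand are not given in the sources used here. All sample columns were used and matched to samples by the labels.

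Tests used edgeR 4.0.16 under R 4.3.3 (filterByExpr, TMM, quasi-likelihood test on group alone, Benjamini-Hochberg adjustment over 14543 genes, threshold 0.05). The SE is the log2 fold change divided by the square root of F, and log2 CPM used a prior count of 2. Counting intervals are exact Poisson at 95% and, like the floor of 3 counts, cover counting error only. P-values measure the spread between these cultures. Alternatives were DESeq2 1.42.0, limma-voom 3.58.1, median-of-ratios or total-count scaling, 2 other filters (none, or a mean of at least 1 CPM), leaving out each library, and the replicate block. Combinations with the block were added after the counts were seen. For libraries with the same number, the correlation of their deviations from the group mean over all tested genes was 0.15, 0.16 and 0.42, which met the rule for pairing, so blocked values are given where they change a call. Numbers 1 and 2 are not told apart by this: over the 4829 genes averaging 1000 counts or more the same-number values were 0.37, 0.48 and 0.63, but scramble 1 with miR92a 2 gave 0.52.

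Transcript lengths, 3′ UTRs, coding sequences and 31-base words came from GENCODE v29, read with Python 3.11.15. The code was tested on simulated data with no replicate effect. On group alone it recovered 13.6% of 1.5-fold, 53% of 2-fold and 84.1% of 4-fold changes, with 6 false calls among 103. With the block it recovered 13.6%, 51.5% and 79.4%, with 18 false calls among 111. Members and lists were chosen with earlier results of these data known. Named genes were all members and, per list, up to 4 called without and up to 4 called with the block, by p, or else the 2 most abundant; EZR, SLCO1B3, CYP3A4, ORM1 and NR1I2 were chosen after their values were seen, and markers are given as such. Results for some genes are not reported here.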

Additional observations from a re-analysis of the deposited data

How the results depend on the processing

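Depth limits the 4 transporters under 10 CPM, for which miR92a 1 held 0 to 3 counts. With the replicate block 2 transporters were called, as with the block and total counts alone or no filter; the block without each replicate number gave 0 to 2, and no other setting called any. For the other lists the block called 1 of the SLC22, SLCO and SLC47 carriers, 1 gene of imatinib metabolism, 7 regulators, 5 anchors and partners and 2 glutathione genes, where the fit on group alone called 0 and the block 11.3% of all genes; it changed no call count of the other ABC transporters or the carnitine list. DESeq2 called 1 glutathione gene. SLC16A9, the carnitine gene called, was lost with total counts alone (0 called) and the count was 0 to 1 with each library left out.

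Signs of changes that did not pass turned in several fits. ABCB1 (-0.27) was 0.06 with the replicate block, 0.151 in DESeq2 and 0.065 in limma-voom with it, 0.078 with it and total counts, 0.057 with it and no filter, and ranged from -1.08 to 0.36 with each library left out and from -0.10 to 0.51 with the block and each pair left out. Leaving out each library gave -1.13 to 0.51 for ABCG2, -0.088 to 0.057 for ABCC1, -0.23 to 0.12 for ABCC5 and -0.15 to 0.053 for ABCC10. With the block and each pair left out, ABCG2 ranged from -0.85 to 0.16, ABCC1 from -0.121 to 0.069 and SLC22A4 from -0.079 to 0.151. ABCC1 was 0.003 with the block and total counts, and SLC22A4 -0.018 in limma-voom with the block. ABCC3, ABCC4 and SLC22A5 kept their sign in all 20 alternatives. The cause was not tested.

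Over the union of exons the levels were 12.1 for ABCC1, 0.496 for ABCC3, 8.90 for ABCC5, 6.39 for ABCC10 and 1.65 CPM per kilobase for SLC22A5 (6.50 with its longest coding transcript), which put ABCC1 above ABCC5. All genes called were 142 lower and 63 higher on group alone, 975 and 664 with the block, 247 and 140 in DESeq2, and 56 to 148 lower and 14 to 53 higher with each library left out.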
